A study of Rattus norvegicus with 16 samples.

Results

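The 41 genes described here encode molecular chaperones and their close helpers. They were found by symbol in the chip's annotation: the families Hspa, Hspb, Hspd, Hspe, Hsph, Hsp90, Dnaj and Pdia, subunits 2 to 8 of the chaperonin CCT, and Calr and Canx. They are 41 of 6241 named genes and of 12559 tested units, a unit being a named gene (the mean of its features) or a feature with no single gene symbol. By the site of their products, 13 are chaperones of the endoplasmic reticulum (ER), 6 are mitochondrial and 6 are CCT subunits. Another 6 were listed with the cytosolic heat shock families and 9 are cytosolic or nuclear J proteins. The remaining gene, Hspb11, was kept apart because its product is mainly known from cilia. Hspbap1, which matched through the prefix Hspb, was counted with the heat shock families. These genes were read by 80 of the chip's 15151 features, 1 feature each for 16 genes and several for 25. Every one of the 41 had values on at least 3 arrays of each group, and no filter on low values was applied. A further 11 features list several symbols and were left out, 7 of them for Hspa8, Hspa1a and Hspa1b and 3 for Hspd1 with Hspe1. The main cytosolic HSP70 proteins and mitochondrial HSP60 are therefore not analysed here. The cytosolic HSP90 genes Hsp90aa1 and Hsp90ab1 are not among the 41 either, so the cytosolic class holds no HSP90.

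Chaperones bind chains that are unfolded or newly made and release them as they fold. In the ER, the HSP70 protein BiP works with J proteins that stimulate its ATPase, GRP94 is the local HSP90, calreticulin and calnexin hold glycoproteins by their sugars, and disulfide isomerases form and rearrange disulfide bonds. The cytosol uses HSP70 and HSP90 with many co-chaperones and the ring-shaped CCT, which folds actin and tubulin, and the mitochondrial matrix has its own HSP70 and the HSP60 and HSP10 chamber. The unfolded protein response raises ER chaperones and heat shock factors raise cytosolic and mitochondrial ones, so these compartments can be regulated apart.

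Neural stem and progenitor cells from the neocortex of Sprague-Dawley rat embryos (day 14.5) were expanded as adherent cultures in N2 medium with fibroblast growth factor 2 (FGF-2, 10 ng/ml), their mitogen. The 4 groups were cells without growth factor for 12 h, cells given platelet-derived growth factor AA (PDGF-AA, 10 ng/ml) for 12 h, and the same 2 treatments for 6 d. Each group had 4 of the 16 arrays, made from 40 micrograms of total RNA, with RNA of cells in FGF-2 as the second channel and dyes swapped on 2 arrays. Each value is a log2 ratio of sample over that FGF-2 reference on an array centred on its median, so it is a difference from FGF-2 and not a level.

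The direction of the ratio is likely but not stated: all 8 measured genes of a short DNA replication list were below 0 without factor at 12 h, from -0.84 for Mcm7 to -2.66 for Rrm2. The reference was treated as 1 control sample, its own spread being left out, and p-values measure the spread between hybridisations, since the labels do not say which of them share an RNA preparation. A gene is said to rise or fall where its Benjamini-Hochberg adjusted p from limma, taken over all units, was under 0.05. The cultures were mixed, and fewer cells of a type cannot be told apart from less RNA per cell. Ratios do not show whether a marker is at 0, so the labelled cell type could be followed only as change. Among 10 listed progenitor markers, 3 were measured, and without factor at 6 d Nes was at -0.89, Vim at -0.31 and Id1 at -0.82, while 4 of 5 measured astrocyte markers rose, Clu by 3.22. In the same group 2 of 5 neuron markers rose, Mapt by 1.19 and Tubb3 by 0.45, and so did Pdgfra, the measured marker of the oligodendrocyte lineage, by 1.51. Markers had moved by 12 h without factor, when the ER chaperones were lowest: Vim fell by 0.81, Id1 by 0.88 and Gap43 by 0.52, and Mapt rose by 0.77 and Uchl1 by 0.38. The astrocyte markers went both ways there, Aldoc rising by 1.29 and Slc1a3 falling by 0.44, while Clu, Gja1 and Entpd2 did not pass. Pdgfrb, listed for fibroblasts and pericytes, rose by 0.56. Of the markers of cells foreign to the culture, C1qa and C1qb of microglia and Pecam1 and Cdh5 of endothelium lay between -0.27 and 0.20 in the 4 groups and none passed the test, while 3 of 4 measured markers of fibroblasts and pericytes rose without factor at 6 d and 2 with PDGF-AA, Col3a1 by 1.17 and 1.04. The part of these changes in cell makeup in the chaperone values was not tested.

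One array stood apart for these genes: on replicate 4 of PDGF-AA at 6 d the mean of the 13 ER chaperones was -0.143, against 0.0975 to 0.128 on the other 3. It is the only array of its group whose title carries the same leading number as all 12 h arrays, and the labels do not say what that number means. Calls that change without it are given both ways.

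After 12 h the ER chaperones stood below FGF-2 as a group in both treatments, and by 6 d they were back near it, while the CCT ring and the mitochondrial genes stayed below 0 without factor. The mean of the 13 ER genes was -0.331, -0.312, -0.326 and -0.315 on the 4 arrays without factor at 12 h, and -0.186, -0.193, -0.208 and -0.207 with PDGF-AA. At 6 d it was -0.0217, 0.116, 0.0186 and -0.0129 without factor, and 0.128, 0.122, 0.0975 and -0.143 with PDGF-AA. The 4 arrays of a group at 12 h thus lay within a narrow band, the bands of the 2 treatments did not overlap, and both lay wholly below every array at 6 d. In the 21 cytosolic and nuclear genes the mean was -0.154 ± 0.055 (SD, n = 4) without factor at 12 h, -0.0391 ± 0.0382 with PDGF-AA at 12 h, -0.163 ± 0.095 without factor at 6 d and -0.0425 ± 0.132 with PDGF-AA at 6 d. There the 2 times stood at like values under each treatment.

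**Figure D1:**
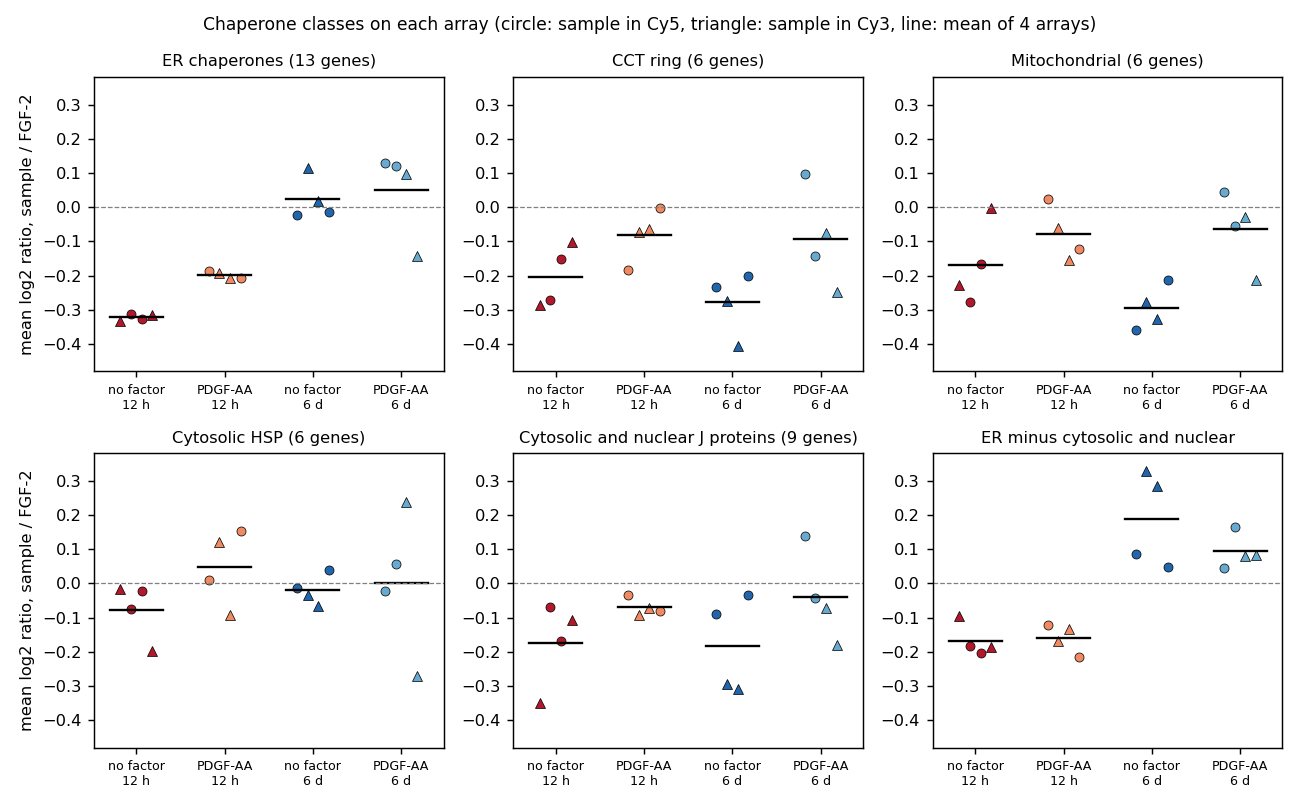
Mean log2 ratio of sample over FGF-2 (vertical axis) on each array for 5 chaperone classes and for the ER mean minus the cytosolic and nuclear mean, in the 4 groups (horizontal axis); circles are arrays with the sample in Cy5, triangles in Cy3, and lines are means of 4 arrays. The ER class is below 0 on all 8 arrays at 12 h and around 0 at 6 d, and its difference from the cytosolic class is negative on all 8 arrays at 12 h and positive on all 8 at 6 d.

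Set against the cytosolic and nuclear genes on the same array, the ER chaperones changed sides between the times. The ER mean minus the cytosolic mean was -0.167 ± 0.049 (SD, n = 4) without factor and -0.160 ± 0.042 with PDGF-AA at 12 h, and 0.187 ± 0.141 and 0.0937 ± 0.0499 at 6 d. It was negative on all 8 arrays at 12 h and positive on all 8 at 6 d. With medians over genes in place of means, the 12 h differences were -0.303 and -0.239. At 6 d without factor the median of the genes' fitted changes was -0.07 for the ER and -0.21 for the cytosolic and nuclear genes. With PDGF-AA at 6 d these medians were 0.02 and -0.04. The ER mean minus the mitochondrial mean moved the same way, from -0.152 ± 0.119 and -0.121 ± 0.068 at 12 h to 0.319 ± 0.083 and 0.114 ± 0.048 at 6 d. These class means are descriptions with no test, since their members were chosen with results of these data known.

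Without factor at 12 h, 15 of the 41 genes fell and none rose; of all units, 6.48% fell and 5.21% rose. The 15 comprised 8 of 13 ER genes, 2 of 6 CCT subunits, 1 of 6 cytosolic heat shock genes, 3 of 9 J proteins and 1 of 6 mitochondrial genes. The median was -0.38 over the ER genes, -0.19 over CCT, -0.10 over the cytosolic heat shock genes, -0.08 over the J proteins and -0.10 over the mitochondrial genes, against a median over all units of -0.0010. The count was 8 without replicate 1 or replicate 2 of the group and at most 16 when any other array was left out. It was 16 without the array that stood apart, Hspa4 being added (-0.31, adjusted p = 0.033), and 12.5% of all units then passed. With PDGF-AA at 12 h, 4 of 41 fell and none rose, where 2.35% of all units fell and 0.661% rose. The 4 genes were Dnajb11, Pdia6, Dnajc9 and Hspe1, and the ER median was -0.21. This smaller count was sensitive to single arrays, with 1 without replicate 1 or 2 of the group and 2 without replicate 3 or 4. Without replicate 4 of PDGF-AA at 6 d it was 9, with Calr, Hsp90b1, Hspa14, Pdia3 and Pdia4 added, and 3.89% of all units then passed.

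At 6 d without factor, 7 of 41 genes fell and 2 rose, beside 6.73% and 6.99% of all units. The genes that fell were Cct2, Cct8, Dnajc2, Dnajc9, Dnajc13, Dnajc15 and Hspe1, and the 2 that rose, Canx and Dnajc18, both act at the ER membrane. With all arrays no ER chaperone was among those that fell, but without the array that stood apart Pdia4 was added (-0.24, adjusted p = 0.039). The count was then 10, and 14.3% of all units passed. The count of 9 was 4 without replicate 3 of the group. The classes' medians were -0.07 for the ER, -0.21 for CCT and -0.29 for the mitochondrial genes. At 6 d with PDGF-AA none of the 41 passed limma's test, 4 having an unadjusted p under 0.05, while 1.32% of all units fell and 1.9% rose. The ER median was then 0.02 and the CCT median -0.05. Leaving out the array that stood apart left this count at 0.

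Hspa5 encodes BiP, the ER's HSP70. Its log2 ratios without factor at 12 h were -0.58, -0.55, -0.43 and -0.38, and with PDGF-AA -0.20, -0.10, -0.16 and -0.12. All 8 were below 0 and the groups did not overlap, the PDGF-AA arrays being closer to FGF-2. At 6 d the values were -0.40, 0.18, -0.08 and -0.03 without factor and 0.17, 0.26, 0.35 and -0.45 with PDGF-AA, spread around 0. Hspa5 fell 1.40-fold without factor at 12 h (log2 change -0.48, SE 0.12, adjusted p = 0.011), a call lost without replicate 1 or 2 of that group. With PDGF-AA the change was -0.14 (adjusted p = 0.73). Its 4 features all lay below 0 in both groups at 12 h.

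Hsp90b1 encodes GRP94, the ER's HSP90, and had the lowest value of the ER class. It was at -1.24, -0.86, -0.95 and -0.68 without factor at 12 h, and at -0.49, -0.48, -0.09 and -0.57 with PDGF-AA. Again no array of one group reached into the other. At 6 d it was at -0.29, -0.05, -0.39 and -0.22 without factor, and at 0.46, 0.17, 0.09 and -0.65 with PDGF-AA, the last value being from the array that stood apart. Hsp90b1 fell 1.91-fold without factor at 12 h (-0.93, SE 0.14, adjusted p = 0.000286), and this call held in all 7 other settings and with each of the 16 arrays left out. With PDGF-AA at 12 h it was at -0.41 (adjusted p = 0.16), a value that passed only when that array was left out (adjusted p = 0.047).

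The other HSP70-type and J proteins of the ER did not move as one. Dnajb11, the abundant luminal J protein that hands substrates to BiP, read -0.51, -0.45, -0.57 and -0.49 without factor at 12 h and -0.32, -0.18, -0.36 and -0.41 with PDGF-AA, again 2 groups without overlap. It fell by 0.50 without factor (SE 0.08, adjusted p = 0.00061) and by 0.32 with PDGF-AA, where the adjusted p of 0.049 was lost in 6 of 7 other settings. Hspa13, a microsomal HSP70-like ATPase, fell by 0.35 without factor at 12 h (SE 0.09, adjusted p = 0.023), a call lost without any 1 of the group's arrays. Dnajc18, a J protein anchored in the ER membrane with its J domain towards the cytosol, lay on the other side of 0: without factor at 6 d its arrays read 0.72, 0.54, 0.50 and 0.36, and it rose by 0.53 (SE 0.14, adjusted p = 0.014). At 6 d Dnajc18 no longer passed when replicate 1, 2 or 3 was left out, when the dye was not modelled, or when only the arrays sharing the 12 h arrays' title number were used. Without factor at 12 h it was at 0.41 and did not pass with all arrays. It passed there with arrays scaled to a common spread (adjusted p = 0.045) and without replicate 4 of its group (adjusted p = 0.038). Leaving out replicate 3 of PDGF-AA at 12 h also made it pass (adjusted p = 0.023). The other 3 ER J proteins, Dnajb9, Dnajc3 and Dnajc10, ranged from -0.17 to 0.26 over the 4 groups and none passed. Of these, Dnajb9 was above 0 on every array at 12 h, with means of 0.24 without factor and 0.26 with PDGF-AA.

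**Figure D2:**
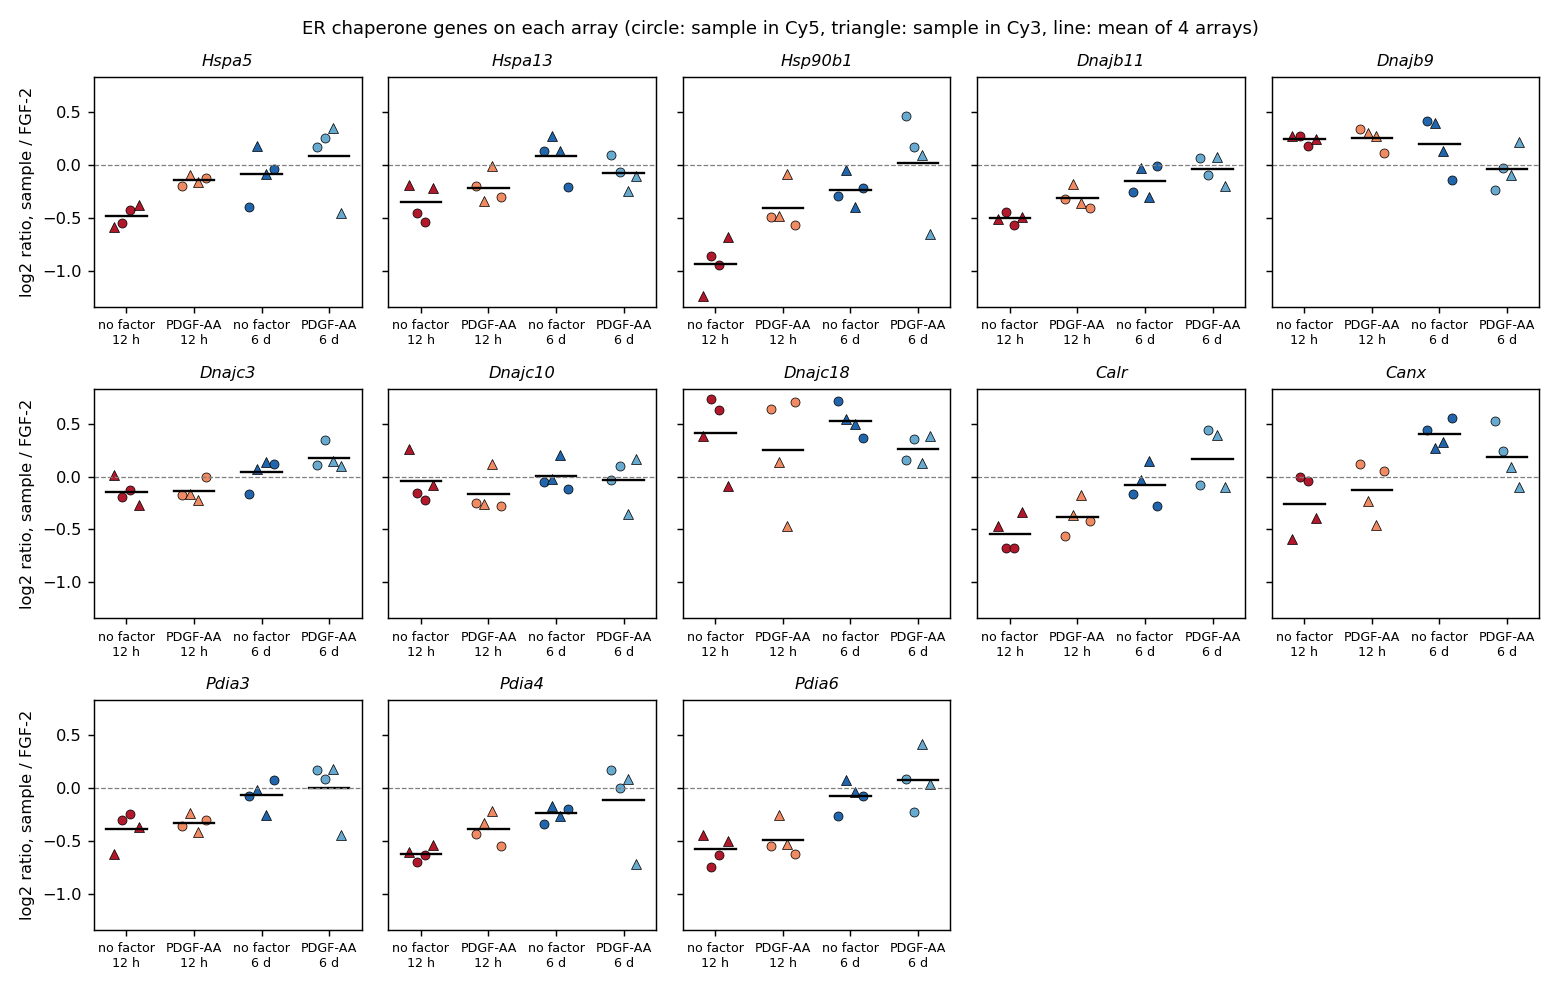
Log2 ratio of sample over FGF-2 (vertical axis) for the 13 ER chaperone genes on each of the 16 arrays, by group (horizontal axis); circles are arrays with the sample in Cy5, triangles in Cy3, and lines are means of 4 arrays. Hsp90b1 reaches -1.24 without factor at 12 h, most genes lie nearer to 0 at 6 d, and the means of Dnajb9 and Dnajc18 are above 0 at 12 h.

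The lectins calreticulin and calnexin are the soluble and membrane-bound holders of glycoproteins. Calr was at -0.47, -0.68, -0.68 and -0.33 without factor at 12 h and at -0.16, -0.03, 0.15 and -0.28 at 6 d. It fell by 0.54 at 12 h (SE 0.10, adjusted p = 0.00185) and stood at -0.08 at 6 d (adjusted p = 0.77). Canx was at -0.59, -0.00, -0.04 and -0.39 at 12 h, where each dye gave its own pair of values, and at 0.44, 0.27, 0.32 and 0.56 at 6 d, all 4 above 0. It rose 1.32-fold above FGF-2 at 6 d without factor (0.40, SE 0.08, adjusted p = 0.0033) and between 12 h and 6 d it rose by 0.66 (SE 0.12, adjusted p = 0.0072). Both Canx calls were lost only in the fit without a dye term. Of its 4 features, 3 read 0.49, 0.51 and 0.57 at 6 d and the fourth 0.03. With PDGF-AA at 6 d neither gene passed, Calr being at 0.16 and Canx at 0.19, and the difference between the genes was not tested.

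The 3 disulfide isomerases, like BiP and GRP94, fell without factor at 12 h, and with PDGF-AA at 12 h they differed among themselves. Pdia6 read -0.44, -0.74, -0.63 and -0.50 without factor and -0.55, -0.26, -0.53 and -0.63 with PDGF-AA, groups that overlapped in part. It fell in both, by 0.58 (SE 0.09, adjusted p = 0.000277) and by 0.49 (adjusted p = 0.0051), and both calls held in the same 7 settings and with each array left out. Pdia4 read -0.60, -0.69, -0.63 and -0.54 without factor and fell 1.53-fold (-0.62, SE 0.12, adjusted p = 0.00185), its 2 features giving -0.62 each; with PDGF-AA it was at -0.38 (adjusted p = 0.092). Pdia3, the isomerase that works on glycoproteins held by the lectins, fell by 0.38 without factor (SE 0.10, adjusted p = 0.016), a call lost without replicate 1, 2 or 3 of the group, and read -0.33 with PDGF-AA (adjusted p = 0.089). At 6 d the group means of the 3 isomerases lay between -0.24 and 0.08 and none passed with all arrays. With PDGF-AA at 6 d the array that stood apart read -0.72 for Pdia4 and -0.45 for Pdia3. The other arrays of that group read 0.17, 0.01 and 0.09 for Pdia4 and 0.18, 0.09 and 0.18 for Pdia3. With only the arrays that share the 12 h arrays' title number, which leaves that array alone in its group, Pdia4 was at -0.77. Pdia4 without factor, at -0.24, passed when the array that stood apart was left out, as given above.

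Promoter sequence was read from RefSeq (rat build GRCr8), which held 31 of the 41 genes with a window of 250 bases before and 50 after the gene start. The ER stress element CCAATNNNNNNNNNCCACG, known as a site of the unfolded protein response, was searched on both strands. It was found in 22 of 33469 promoters (0.0657%), in 5 of the 11 ER chaperones with a promoter (45.5%) and in none of the 20 other chaperone genes. The 5 are printed here because 3 of them fell at 12 h and 2 did not pass; capitals mark the element, or its reverse complement in Calr and in the second copy in Hsp90b1, and each is written 5′ to 3′ on its gene's strand.

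Hspa5: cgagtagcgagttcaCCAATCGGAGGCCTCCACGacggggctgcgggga
Hsp90b1: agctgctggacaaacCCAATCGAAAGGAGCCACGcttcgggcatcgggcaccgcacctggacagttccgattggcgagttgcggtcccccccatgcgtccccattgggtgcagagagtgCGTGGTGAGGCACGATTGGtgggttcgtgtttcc
Calr: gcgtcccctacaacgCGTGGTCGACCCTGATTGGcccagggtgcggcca
Canx: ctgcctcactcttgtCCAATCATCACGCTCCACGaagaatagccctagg
Dnajc3: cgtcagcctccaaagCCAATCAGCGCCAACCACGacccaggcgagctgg

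In GRCr8 these stretches are chr3:38452958-38453006 (plus strand) for Hspa5, chr7:23012332-23012484 (minus) for Hsp90b1, chr19:40213120-40213168 (plus) for Calr, chr10:35158054-35158102 (minus) for Canx and chr15:102432519-102432567 (plus) for Dnajc3. Relative to the annotated gene start, the element spans -43 to -25 in Hspa5, -176 to -158 and -72 to -54 in Hsp90b1, -232 to -214 in Calr, -230 to -212 in Canx and -133 to -115 in Dnajc3. Of these 5 genes, 3 (Hspa5, Hsp90b1 and Calr) fell without factor at 12 h, and Canx at -0.26 (adjusted p = 0.054) and Dnajc3 at -0.14 (adjusted p = 0.34) did not pass. A match is a description of letters and not of a bound site, and a gene without one here only lacks these letters in this window: Dnajb11, Pdia4 and Hspa13 had no match and fell too.

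The heat shock element GAANNTTCNNGAA, or its reverse complement, was in 267 promoters (0.798%) and in 3 of the 31 chaperone genes, namely Hspe1, Hsph1 and Cct4, and in none of the 11 ER genes. The 2 upstream matches are printed because Hspe1 was among the genes with the lowest ratios while Hsph1 lay above 0; capitals mark the element, which occurs as 2 overlapping copies in Hspe1.

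Hspe1: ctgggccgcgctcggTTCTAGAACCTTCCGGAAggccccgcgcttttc
Hsph1: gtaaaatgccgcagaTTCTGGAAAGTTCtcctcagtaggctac

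These are chr9:64084247-64084294 and chr12:10427317-10427359, both on the plus strand, with the elements at -65 to -53 and -60 to -48 in Hspe1 and -36 to -24 in Hsph1.

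Hspe1 encodes HSP10, the lid of the mitochondrial HSP60 chamber, and fell in 3 of the 4 groups. Its arrays read -0.87, -0.87, -0.72 and -0.84 without factor at 12 h and -0.21, -0.34, -0.47 and -0.48 with PDGF-AA, with no overlap. At 6 d they read -0.55, -0.59, -0.78 and -0.30 without factor and -0.02, -0.07, -0.04 and -0.50 with PDGF-AA, where the lowest value is again from the array that stood apart. The falls were 0.82 (SE 0.09, adjusted p = 1.67e-05), 0.38 (adjusted p = 0.030) and 0.56 (adjusted p = 0.000499), and the change of -0.16 with PDGF-AA at 6 d did not pass (adjusted p = 0.44). The PDGF-AA call at 12 h was lost without any 1 of that group's own arrays. Hspa9, the mitochondrial HSP70, did not share this: it lay between -0.12 and 0.05 in the 4 groups and never passed. Dnajc15, a J protein of the inner membrane import motor, fell by 0.48 without factor at 6 d (SE 0.11, adjusted p = 0.006), its Cy3 arrays at -0.77 and -0.82 and its Cy5 arrays at -0.17 and -0.14. This call was lost only in the fit without a dye term. The other 3 mitochondrial genes ranged from -0.30 to 0.22 and none passed.

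The CCT ring is built of 8 kinds of subunit, of which subunits 2, 3, 4, 5, 7 and 8 have a value here. Without factor at 6 d all 6 lay below 0 on all 4 arrays, which 12.4% of all units also did. Their changes there were -0.45 for Cct2 (SE 0.11, adjusted p = 0.0085) and -0.46 for Cct8 (SE 0.11, adjusted p = 0.01), which passed, and -0.20, -0.14, -0.21 and -0.21 for Cct3, Cct4, Cct5 and Cct7, which did not. Cct2 varied with the dye, its arrays being at -0.18, -0.54, -0.89 and -0.19, and so did Cct8, at -0.35, -0.50, -0.82 and -0.15. Neither 6 d call held without a dye term or without replicate 3 of the group. That of Cct8 was also lost without replicate 1 and with only the arrays that share the 12 h arrays' title number. Without factor at 12 h, Cct7 fell by 0.29 (SE 0.08, adjusted p = 0.025), with 4 features between -0.28 and -0.30, and Cct8 by 0.42 (SE 0.11, adjusted p = 0.021). Both calls were lost without a dye term, in a fit of that group alone, and without replicate 1, 2 or 3 of the group. With PDGF-AA the 6 subunits ranged from -0.30 to 0.04 at 12 h and from -0.38 to 0.03 at 6 d, and none passed.

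Dnajc9, a J protein of the nucleus that also binds histones H3 and H4, had the lowest ratio of the 41 genes. It read -1.43, -1.54, -1.35 and -1.14 without factor at 12 h and -1.29, -0.79, -0.53 and -0.37 with PDGF-AA, the latter spread widely and meeting the former at 1 array. At 6 d it read -0.56, -0.64, -0.78 and -0.37 without factor and 0.25, -0.26, -0.17 and -0.53 with PDGF-AA. Dnajc9 fell 2.57-fold without factor at 12 h (-1.36, SE 0.14, adjusted p = 7.87e-06), 1.68-fold with PDGF-AA (adjusted p = 0.0064) and by 0.59 on the log2 scale without factor at 6 d (adjusted p = 0.0075). At 6 d with PDGF-AA it was at -0.18 (adjusted p = 0.6). Genes of DNA replication were low without factor at 12 h, as given above, and are not given for the other groups. Their part in the Dnajc9 values was not tested.

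Dnajc2, a ribosome-associated J protein, fell without factor by 0.44 at 12 h (SE 0.10, adjusted p = 0.0084) and by 0.49 at 6 d (SE 0.10, adjusted p = 0.0032). Its 6 d arrays were at -0.63, -0.32, -0.61 and -0.38 without factor and at 0.03, -0.12, -0.13 and -0.29 with PDGF-AA, which did not overlap. Dnajb1, the stress-inducible partner of cytosolic HSP70, fell by 0.32 without factor at 12 h (SE 0.10, adjusted p = 0.046), close to the threshold and lost without any 1 of 9 arrays. Dnajc13, an endosomal J protein, fell by 0.36 without factor at 6 d (SE 0.10, adjusted p = 0.019), with Cy3 arrays at -0.65 and -0.53 and both Cy5 arrays at -0.14. The call was lost without a dye term, in a fit of that group alone, and without replicate 1, 2 or 3 of the group.

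Among the cytosolic heat shock genes, Hspa14, an HSP70 of the ribosome-associated complex, was the one that passed. It read -0.31, -0.38, -0.51 and -0.48 without factor at 12 h and fell by 0.42 (SE 0.08, adjusted p = 0.00147), with all 4 features below 0. Hsph1, an HSP110 that recharges HSP70 with nucleotide, read 0.15, -0.01, 0.01 and 0.40 in the same group and 0.07, 0.26, 0.46 and 0.23 with PDGF-AA at 12 h. Its changes of 0.14 and 0.25 did not pass (adjusted p = 0.49 and 0.27). The other 4 genes of this class ranged from -0.31 to 0.33 over the 4 groups and none passed with all arrays. Without factor at 12 h, Hspa4 passed when the array that stood apart was left out, and Hspbap1, at 0.33, passed without replicate 4 of its own group (adjusted p = 0.048) or replicate 2 of the group without factor at 6 d (adjusted p = 0.026). Hspb11 ranged from -0.15 to 0.39.

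**Figure D3:**
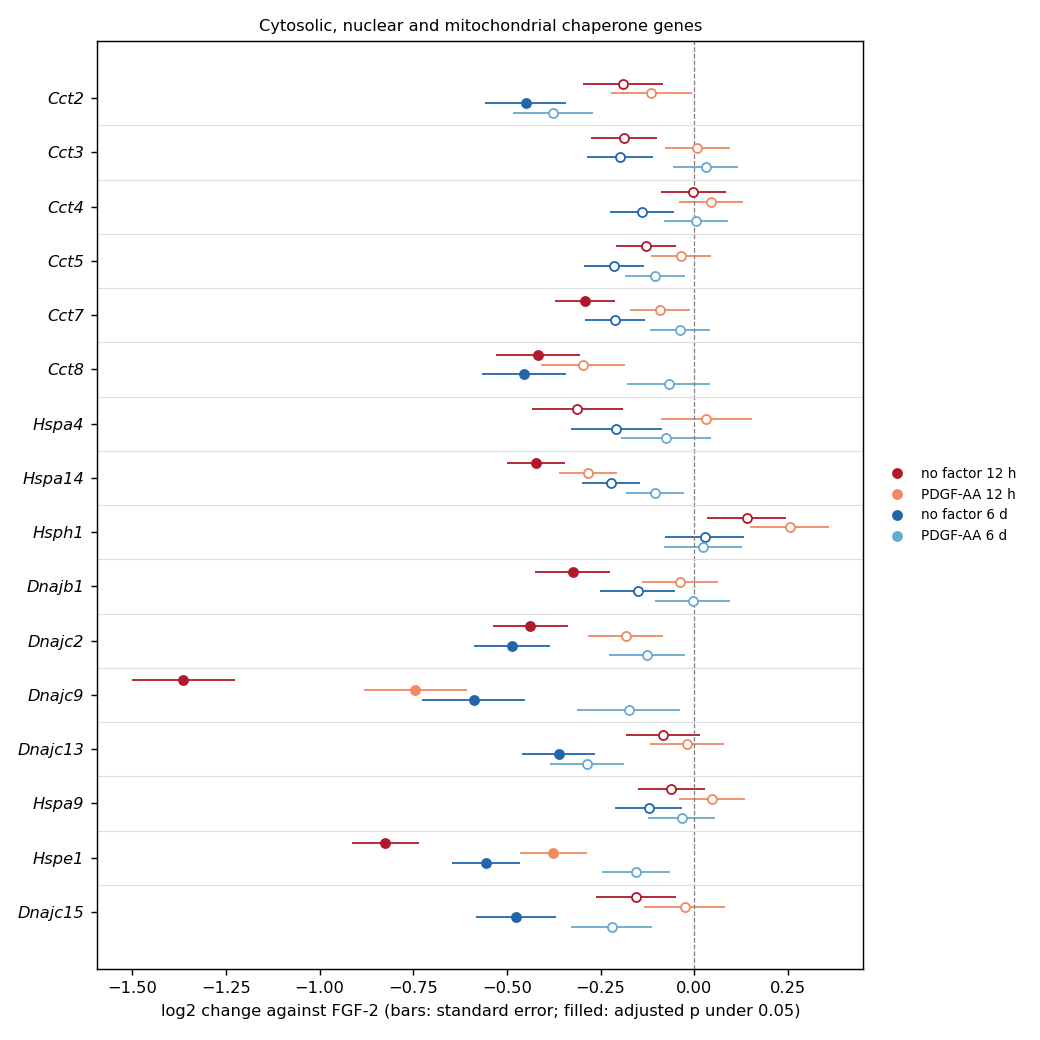
Log2 change against FGF-2 with its standard error (horizontal axis) for 16 cytosolic, nuclear and mitochondrial chaperone genes (vertical axis) in the 4 groups; filled points have an adjusted p under 0.05. Dnajc9 at -1.36 and Hspe1 at -0.82 without factor at 12 h lie farthest from 0, and no PDGF-AA 6 d point is filled.

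Whether PDGF-AA held the chaperones nearer to FGF-2 than no factor was asked directly in the same fit. At 12 h the difference between treatments passed in none of the 41 genes by limma (3 with an unadjusted p under 0.05), beside 0.0159% of all units. The differences of those 3 were 0.62 for Dnajc9 (SE 0.19, adjusted p = 0.72), 0.53 for Hsp90b1 (SE 0.20, adjusted p = 0.81) and 0.45 for Hspe1 (SE 0.13, adjusted p = 0.6). All 4 PDGF-AA arrays lay above all 4 arrays without factor in 4 of the 41 genes (9.76%), Hspa5, Hsp90b1, Dnajb11 and Hspe1, and below them in none, where 1.65% of all units lay above and 0.685% below. The median difference over the 41 genes was 0.11, and 9 differences were negative. At 6 d again none passed (4 with an unadjusted p under 0.05), beside 0.00796% of all units, and 1 gene, Dnajc2 (2.44%), had all PDGF-AA arrays above those without factor, where 1.31% of all units did and 1.35% lay below. The interaction of treatment and time passed in 0 of the 41 genes and in 0% of all units, with none of the 41 at an unadjusted p under 0.05. A difference between the treatments was thus not shown for any single chaperone gene with 4 arrays a group.

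At 6 d most ER chaperones stood higher against FGF-2 than at 12 h under both treatments, but few of them passed one by one. Without factor 2 of 41 genes rose and none fell, beside 1.42% and 0.454% of all units, and with PDGF-AA 1 rose and none fell, beside 0.637% and 0.438%. The ER median difference was 0.38 without factor and 0.28 with PDGF-AA, and 12 of the 13 ER genes were above 0 in each. For CCT the medians were -0.06 and -0.01, and for the mitochondrial genes -0.19 and 0.01. With PDGF-AA only replicate 4 at 6 d shares its leading title number with the 12 h arrays, so time can hardly be told apart from title number. On that array the ER mean was -0.143, against -0.208 to -0.186 on the PDGF-AA arrays at 12 h. Its genes went both ways against their PDGF-AA means at 12 h. Pdia4 read -0.72 against -0.38 and Hsp90b1 -0.65 against -0.41, but Pdia6 read 0.04 against -0.49 and Calr -0.095 against -0.38. Pdia6 rose by 0.50 without factor (SE 0.12, adjusted p = 0.044) and by 0.56 with PDGF-AA (SE 0.12, adjusted p = 0.033), calls lost in 4 of 7 other settings each, among them a fit with a term for the title number. With 1 of the 16 arrays left out they held in 5 and in 9 cases. Canx is the second gene that rose without factor.

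Single arrays were also compared between the times. The 4 arrays at 6 d lay above the 4 at 12 h without factor in 8 of the 41 genes (19.5%), against 3.62% of all units, and below in no gene, against 2.47%. The 8 included 6 of the 13 ER genes, Calr, Canx, Hsp90b1, Dnajb11, Pdia4 and Pdia6, and outside the ER Dnajc9 and Hspa14. With PDGF-AA this held for 3 genes, Calr, Dnajc3 and Pdia6, all of the ER, against 1.66% of all units. Without the array that stood apart, 4 genes rose without factor by limma, Hsp90b1 (adjusted p = 0.026) and Dnajc9 (adjusted p = 0.041) being added. With PDGF-AA 3 then rose, Calr (adjusted p = 0.018) and Pdia4 (adjusted p = 0.040) being added. Of all units, 2.39% passed without factor and 1.68% with PDGF-AA in that refit. No PDGF-AA array at 6 d then shares its leading title number with the 12 h arrays, so time and title number cannot be told apart there.

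Other genes of the same pathways were counted from lists that name partners of the chaperones. Their counts stand beside the shares of all units given above. Without factor 6.48% fell and 5.21% rose at 12 h and 6.73% and 6.99% at 6 d. With PDGF-AA 2.35% fell and 0.661% rose at 12 h and 1.32% and 1.9% at 6 d. In the list of ER folding partners, 20 of 43 genes were measured. At 12 h, 6 fell and 2 rose without factor, and 4 fell and none rose with PDGF-AA, with list medians of -0.09 and -0.08. At 6 d, 3 fell and 1 rose without factor, and 2 fell and none rose with PDGF-AA, with list medians of 0.01 and -0.13. Erp29, a lumenal folding factor, fell by 0.59 without factor at 12 h (SE 0.08, adjusted p = 0.000101) and by 0.43 with PDGF-AA, stood at 0.16 and 0.03 at 6 d, and rose by 0.75 between the times without factor (adjusted p = 0.0017). The thioredoxin-like Tmx2 took the same course, with -0.46, -0.41, 0.15 and 0.03 in the 4 groups and a rise of 0.61 between the times without factor (adjusted p = 0.012). P4hb, the classic disulfide isomerase, fell by 0.39 and 0.38 at 12 h, and Txndc5 by 0.43 and 0.46. Manf, a secreted ER stress protein, fell without factor at both times, by 0.61 and 0.50. Against this run, Cnpy2 and the calcium-binding Rcn2 rose by 0.66 and 0.65 without factor at 12 h. Ppic, a cyclophilin of the secretory pathway, stood at -0.05 and -0.02 at 12 h and fell at 6 d, by 0.57 without factor and 0.72 with PDGF-AA. Rcn1 fell at 6 d too, by 0.44 without factor (adjusted p = 0.015) and 0.45 with PDGF-AA (adjusted p = 0.040). Tmx4 rose by 0.34 without factor at 6 d (adjusted p = 0.036).

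The machinery that brings chains into the ER and adds their first sugar also held genes that fell. Of its 26 measured genes out of 34, 8 fell and 1 rose without factor at 12 h, and 4 fell with PDGF-AA. At 6 d, 5 fell and 2 rose without factor, and 1 fell with PDGF-AA. The list medians were -0.16, -0.11, -0.12 and -0.09 in that order. Rpn2, a subunit of oligosaccharyltransferase, fell by 0.91 without factor at 12 h (SE 0.10, adjusted p = 1.85e-05), by 0.66 with PDGF-AA and by 0.41 without factor at 6 d. Its catalytic partner Stt3b fell in all 4 groups, by 0.37, 0.39, 0.47 and 0.44. Ssr1 of the translocon fell by 0.60 and 0.48 at 12 h and stood at 0.05 and -0.08 at 6 d, and Sec61a1, the channel itself, rose by 0.63 between the times without factor (adjusted p = 0.028). Sec62, which serves chains that enter after synthesis, was higher than in FGF-2 without factor, rising by 0.52 at 12 h and 0.62 at 6 d.

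Genes of the unfolded protein response and of ER-associated degradation went both ways. Of 22 measured out of 40, 2 rose and 2 fell without factor at 12 h, and 4 rose and 2 fell at 6 d, with a list median of 0.09 and 0.08. Os9, a lectin that delivers misfolded glycoproteins for degradation, rose 2.04-fold without factor at 12 h (1.03, SE 0.15, adjusted p = 0.000244), by 0.63 with PDGF-AA and by 0.93 without factor at 6 d. Atf6, a sensor and transcription factor of the response, rose by 0.42 and 0.30 without factor, and Syvn1, the ubiquitin ligase of the degradation complex, by 0.56 at 6 d. Edem1 fell by 0.55 and 0.50 and Asns, a target of ATF4, by 0.60 and 0.63 without factor at 12 h and 6 d. Xbp1, named after its values were seen because its product controls ER chaperones, lay between -0.12 and 0.03 in the 4 groups.

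**Figure D4:**
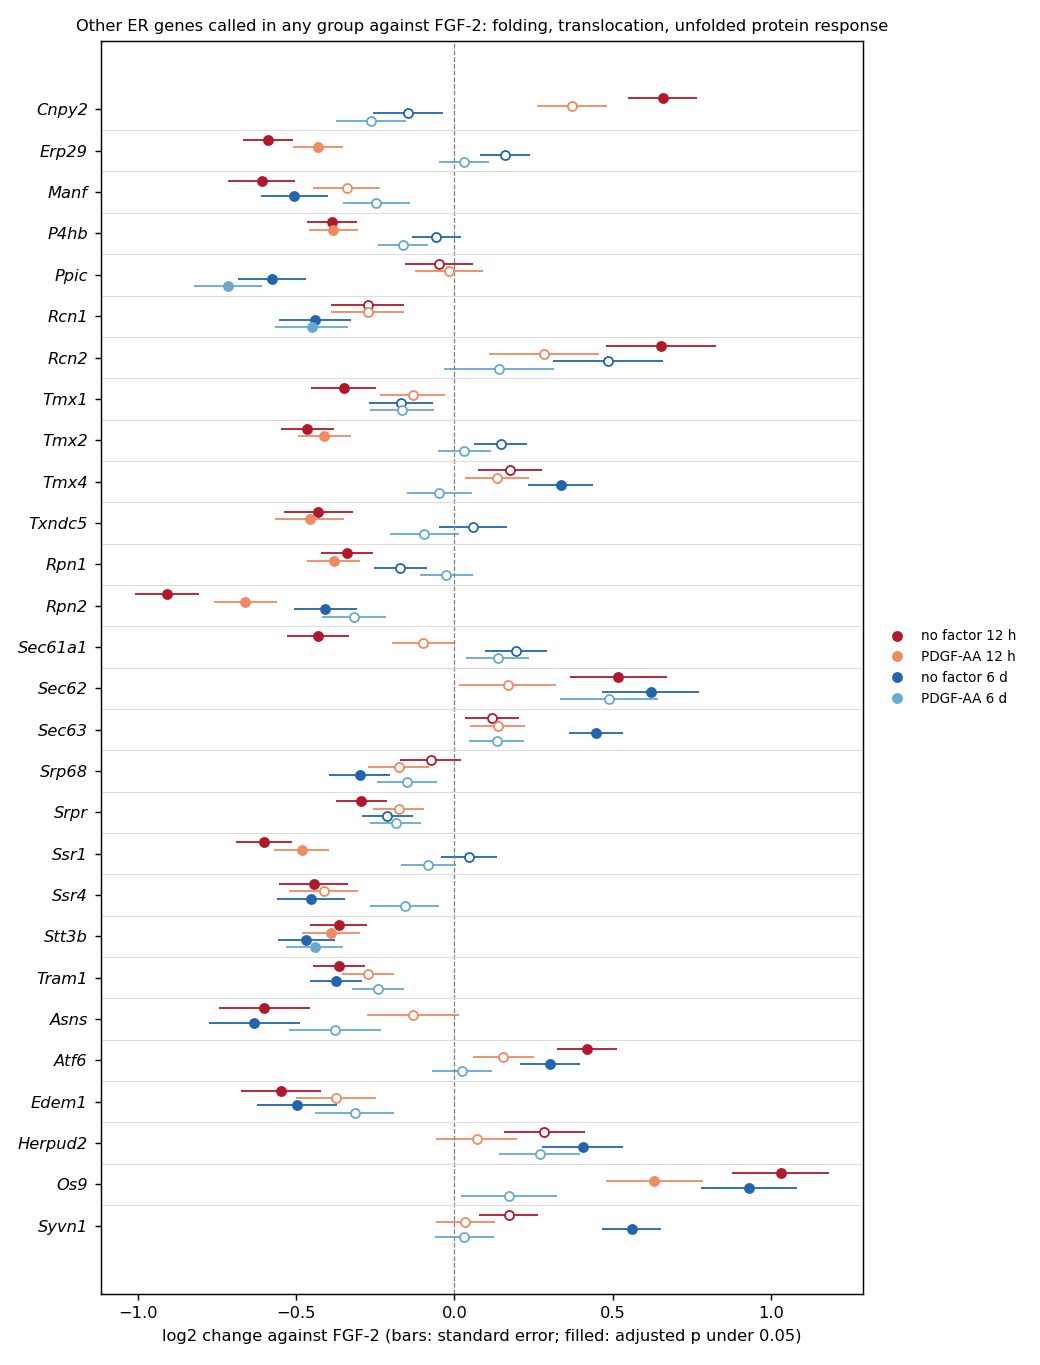
Log2 change against FGF-2 with its standard error (horizontal axis) for each gene of the 3 ER lists that passed in any of the 4 groups (vertical axis, in the order folding partners, translocation and glycan transfer, unfolded protein response and degradation); filled points have an adjusted p under 0.05. Erp29, Tmx2, Txndc5 and Ssr1 are low at 12 h and near 0 at 6 d, Stt3b is low in all 4 groups, and Os9 is high in 3.

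In the cytosol, 38 of 48 listed co-chaperones and heat shock factors were measured, and without factor 5 fell and 1 rose at 12 h (list median -0.05) and 3 fell at 6 d (list median -0.14). Tcp1, the CCT subunit outside the symbol rule, fell by 0.75 at 12 h (SE 0.15, adjusted p = 0.0029). The HSP90 co-chaperones Fkbp4 and Ptges3 fell at both times, by 0.54 and 0.49 and by 0.50 and 0.34. Stub1, a ubiquitin ligase that works with HSP70, fell by 0.62, and by 0.48 with PDGF-AA, the only gene of the list that passed there. Tbcd, a tubulin folding cofactor, rose by 0.36 at 12 h and Tbca, another, fell by 0.45 at 6 d. In the mitochondrial list of folding, import and protease genes, 23 of 34 were measured. Without factor 3 fell at 12 h, Timm17b, Timm23 and Pmpca, by 0.32 to 0.38, and 4 at 6 d, of which Timm13 fell by 0.51. The list medians were -0.07 and -0.09, and none passed with PDGF-AA.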

How the data were processed

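Two-colour arrays of rat RNA on mouse cDNA were analysed from 1 deposited table, which holds 1 log ratio per feature and array, taken here as log2; per the labels, RNA was labelled with Cy3 or Cy5 and dyes were swapped on 2 of 4 arrays. The authors' log base, direction, background correction and normalisation are not given in the sources used here. All 16 columns were used (0 left out). Gene symbols are those of the chip's mouse annotation. Features of 1 symbol were averaged, arrays were centred on their median (deposited medians -0.0053 to 0.0387), and all groups were fitted together in limma 3.58.1 (R 4.3.3) with a dye term. Tests were two-sided with Benjamini-Hochberg adjustment over 12559 units at 0.05, and the procedure was tested on simulated data. A dye effect passed in 39.1% of units and in 9 of the 41 genes. Spot intensities were not used here: how far a spot stood above background is not known, and precision is limited by the number of arrays. Replicate numbers follow deposition order.

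The genes and lists were chosen with earlier results of these data known. Named by rule were genes that passed in any comparison, the general chaperones, and up to 4 passing genes per pathway list and comparison with the largest change. Dnajb9, Dnajc3, Dnajc10, Hspb11, Xbp1 and the genes set apart by single arrays were named after their values were seen. Alternatives covered the dye term, centring, scaling, title number, robust moderation, single features, fewer groups and each array left out.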

Additional observations from a re-analysis of the deposited data

Results flagged for a closer look

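In each group of 4 arrays, the gap between an extreme array and its nearest neighbour was compared with the group's whole range. Chance passes about 1 in 20 such groups, and 7 of 164 combinations of gene and group passed. Replicate 4 of PDGF-AA at 6 d gave 3 of the 7: Hspa4 at -0.646 (0.037 to 0.169 on the other 3 arrays), Hspe1 at -0.501 (-0.066 to -0.0152) and Pdia3 at -0.446 (0.0883 to 0.183). The mean of the ER chaperones stood apart on the same array, at -0.143 against 0.0975 to 0.128. Class means and their differences made 36 further combinations with the groups, compared in the same way.

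The other cases came from different arrays. Hspbap1 was at 0.0038 on replicate 4 without factor at 12 h (0.40 to 0.464 on the others), and Dnajc5 at 0.401 on replicate 1 without factor at 6 d (-0.0418 to -0.0064). With PDGF-AA at 12 h, Dnajc10 was at 0.12 on replicate 3 (-0.278 to -0.245) and Dnajc13 at -0.111 on replicate 2 (0.00195 to 0.0215). The mean of all cytosolic and nuclear genes was -0.237 on replicate 1 without factor at 12 h, against -0.130 to -0.122 on the other 3.

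Canx and Pdia6 differed between the 2 times by limma's test of the difference. Without factor the difference of 6 d from 12 h was 0.657 for Canx and 0.504 for Pdia6, and with PDGF-AA it was 0.565 for Pdia6. With each of the 16 arrays left out in turn, the Canx difference passed in 16 cases and those of Pdia6 in 5 and 9.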

How the results depend on the processing

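No paired analysis was possible because the labels give no replicate numbers and do not say which arrays share an RNA preparation. Of 353 values for single genes that passed, 262 stayed past the threshold, 91 did not, and 0 changed sign. Calr, Dnajb11, Dnajc9, Hsp90b1, Hspa14, Hspe1, Pdia4 and Pdia6 without factor at 12 h, Pdia6 with PDGF-AA at 12 h, and Dnajc2 and Hspe1 without factor at 6 d passed in all 7 other settings and with each of the 16 arrays left out.

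Without a dye term the number of passing chaperone genes was 2 in place of 4 with PDGF-AA at 12 h, 3 in place of 9 without factor at 6 d, and 0 for both differences between times. In fits of the compared groups alone it was 2 with PDGF-AA at 12 h and 0 for the difference between times with PDGF-AA. With PDGF-AA at 6 d it was 1 in place of 0 with arrays scaled to a common spread, with only the arrays that share the leading title number of the 12 h arrays, and with features tested singly. The setting by title number leaves 1 PDGF-AA array at 6 d, the one that stood apart, so its counts for that group rest on a single array taken to vary like the other groups. The difference between times without factor gave 1 with scaled arrays and 1 with a term for the title number. With PDGF-AA that difference gave 0 with that title number alone, 0 with a term for it and 2 with features tested singly. With medians over genes the ER minus cytosolic difference at 12 h was -0.303 without factor and -0.239 with PDGF-AA.

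Leaving out 1 array gave 8 to 16 passing genes without factor at 12 h, 1 to 9 with PDGF-AA at 12 h, 4 to 10 without factor at 6 d, 0 to 1 with PDGF-AA at 6 d, and for the difference between times 1 to 4 without factor and 0 to 3 with PDGF-AA. The highest counts of the 12 h PDGF-AA group and of both differences came without replicate 4 of PDGF-AA at 6 d. The causes of these changes were not tested. With 4 arrays a group and no spot intensities, small changes of single genes are not measured well.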
